A study of Homo sapiens with 4 samples.

Results

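BH3-only genes encode the pro-apoptotic branch of the BCL2 family, and the 10 described here were chosen by name: BMF, BCL2L11 (BIM), BID, BAD, BIK, HRK, PMAIP1 (NOXA), BBC3 (PUMA), BNIP3 and BNIP3L (NIX). They are 10 of the 57820 gene models in the deposited tables, and each symbol had 1 model. The rule goes by gene names, but the set was proposed with earlier results of these data known. RNA was sequenced from G401 cells, a human line established from a kidney rhabdoid tumour and deficient in SMARCB1, grown in DMEM with serum. The libraries labelled BRD9 KO (n = 2) came from G401 cells in which the SWI/SNF bromodomain subunit BRD9 had been targeted with CRISPR-Cas9, and the libraries labelled LacZ control (n = 2) from G401 cells with a control that targets LacZ. By the methods of the study, G401 cells were made to express Cas9 under blasticidin selection before a guide was introduced under puromycin selection, and no BRD9-deficient G401 clone could be obtained. Both groups thus share the SMARCB1 defect, and neither is described as a clone. The comparison asks how transcripts of these genes respond to loss of BRD9 where SMARCB1 is already missing. The labels give neither the BRD9 guide nor the day of harvest.

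A BH3-only protein carries a single short helix, the BH3 domain, which fits into a groove on the surface of BCL2 survival proteins such as BCL-XL and MCL1 and, for some members, also engages the pore-forming proteins BAX and BAK. Occupying that groove frees or activates BAX and BAK, which open the outer mitochondrial membrane and start the caspase cascade. Members are held in check by transcription, phosphorylation, cleavage or sequestration, and BNIP3 and BNIP3L act mainly as receptors that mark mitochondria for autophagy.

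The domain that gives the genes their name is shown for the 5 members called by the main edgeR test described below. It is given as the coding strand 5′ to 3′ from GRCh37, the sequence of the authors' hg19 build, with exons from GENCODE v44. Each run covers the 18-base core with 6 bases on each side, and capitals mark the codons of the conserved leucine and of the conserved aspartate. The core was searched for in the translated canonical transcript of each gene as leucine, any 3 residues, then glycine, alanine or serine, then aspartate.
BMF: cgaaagCTTcagtgcattgcaGACcagttc
BCL2L11: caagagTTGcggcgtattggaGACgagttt
BID: aggcacCTCgcccaggtcgggGACagcatg
BAD: cgcgagCTCcggaggatgagtGACgagttt
BNIP3: agcatcTTGaagaaaaactcaGATtggata
The run of BMF is in exon 4 (chr15:40396402-40396431, minus strand, leucine at residue 137 of 184) and that of BCL2L11 in exon 3 (chr2:111907674-111907703, plus strand, residue 152 of 198). That of BID is in exon 4 (chr22:18222187-18222216, minus strand, residue 90 of 195), that of BAD in exon 3 (chr11:64039100-64039129, minus strand, residue 114 of 168) and that of BNIP3 in exon 4 (chr10:133784406-133784435, minus strand, residue 110 of 194). All 10 members held a match, and BID alone held 2, of which the one at residue 90 is printed because it lies in the known BH3 helix. The pattern is short, so that 34% of 20274 canonical coding sequences held at least 1 match, and 11.5% of the 3941 that were between 54 and 219 residues long, the range of the members. A match is a description of the letters and not evidence of a functional domain.

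The 4 libraries held between 15053247 and 19559290 estimated counts, and 15288 genes passed the filter on low counts. BRD9 had 29.4 and 26.8 counts-per-million (CPM, scaled by TMM) in BRD9 KO and 48.2 and 53.8 CPM in LacZ control, so that 55.1% of its transcript remained (log2 fold change -0.86, edgeR adjusted p = 2.84e-09). Guide-directed cutting alters the gene and need not remove its RNA. Why part of the BRD9 transcript remained was not tested. SMARCB1 had 0 counts in all 4 libraries, which allows up to 0.199 CPM in the shallowest, and the mesenchymal filament gene VIM had between 1270 and 1280 CPM in BRD9 KO and between 1790 and 1800 CPM in LacZ control. Of 8 markers of leukocytes, endothelium, epithelium and red cells, 7 were found under their symbol. PTPRC, CD3E, CDH5 and HBB were at 0 throughout, no marker exceeded 6 counts, and their summed level was 0.245 to 0.616 CPM in BRD9 KO and 0.48 to 0.663 CPM in LacZ control.

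Of the members, 9 were expressed and tested, and the changes were uneven: BMF fell to 35.8% of its control level, while the other changes were small. Called means an edgeR quasi-likelihood adjusted p under 0.05 over all genes tested. BID, BAD and BNIP3 were higher in BRD9 KO, BMF and BCL2L11 were lower, BIK, HRK, BBC3 and BNIP3L were not called, and PMAIP1 was too low to test. Thus 5 of 9 tested members were called, 3 higher and 2 lower, where 38.6% of all 15288 tested genes were called, 20.5% higher and 18.1% lower. The median log2 fold change (BRD9 KO minus LacZ control) of the tested members was 0.17, against -0.01 over all genes tested. The groups did not overlap in CPM for 7 of the 9, against 68.6% of all tested genes.

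**Figure D1:**
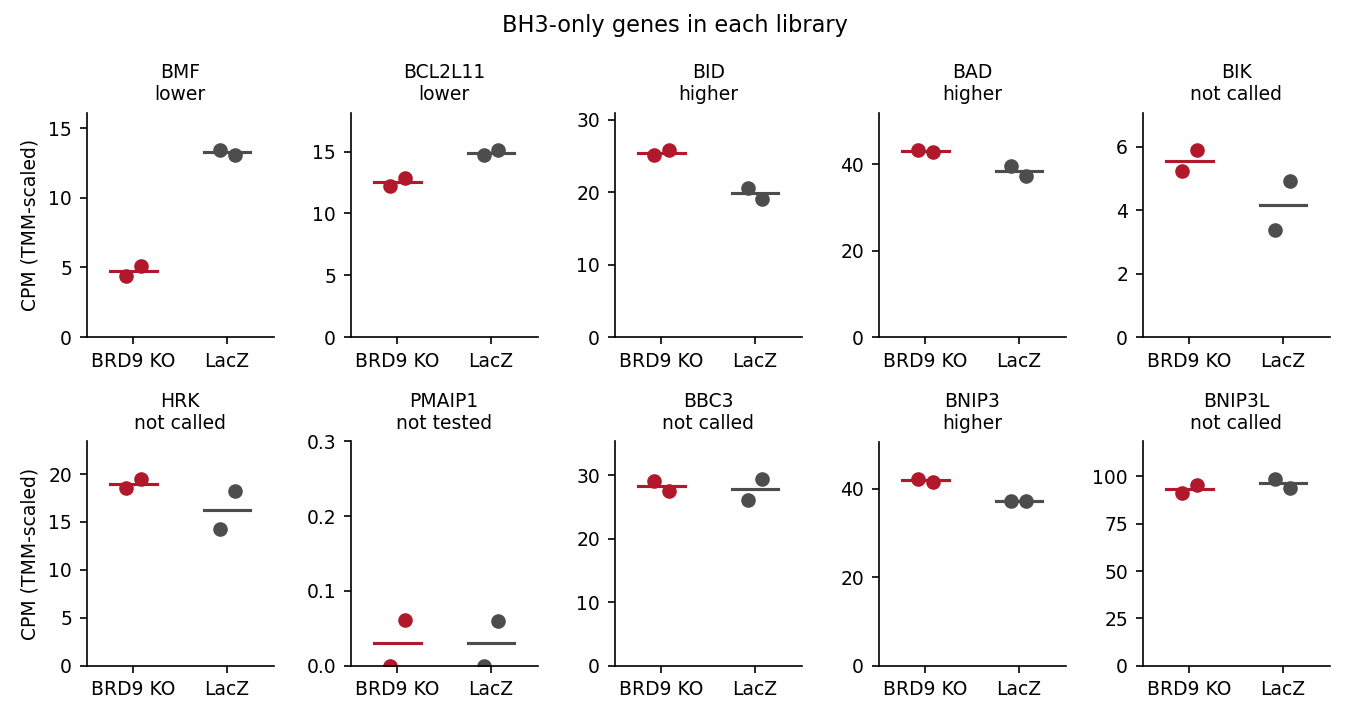
CPM of the 10 BH3-only genes in each library, with 1 panel per gene, an axis from 0 and the call of the edgeR test above it. Points are libraries and lines are group means. BMF lies at 4.36 and 5.14 CPM in BRD9 KO and at 13.4 and 13.1 CPM in LacZ control, while PMAIP1 had at most 1 read in any library.

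BMF, whose protein is held on the actin-linked myosin V motor through a dynein light chain until it is released, was the member with the largest change. It had 4.36 and 5.14 CPM in BRD9 KO (85 and 84 estimated counts) and 13.4 and 13.1 CPM in LacZ control (202 and 219 estimated counts). Both knockout libraries lay far below both controls. The level in BRD9 KO was 35.8% of that in LacZ control, for a log2 fold change of -1.49 (standard error 0.13, 95% interval -1.76 to -1.22, edgeR adjusted p = 1.95e-08). A fall of at least 2-fold was called in 2.01% of the tested genes. Among all 15288 tested genes BMF had the 128th lowest log2 fold change, and among the 11225 whose mean reached 5 CPM it had the 14th lowest. The call held in all 13 alternative analyses, with log2 fold changes from -1.60 to -1.15 and adjusted p from 1.52e-25 to 0.00772. These are bulk libraries, in which fewer cells expressing a gene and less RNA per cell cannot be told apart.

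BMF (ENSG00000104081.9) is annotated on chromosome 15 of GRCh37 between 40380091 and 40401093, on the minus strand. The nearest tested gene on the side of lower coordinates was the antisense transcript SRP14-AS1, 7.28 kb away, with 1.69 and 1.84 CPM in BRD9 KO and 1.59 and 2.4 CPM in LacZ control (log2 fold change -0.19, edgeR adjusted p = 0.661). On the other side, 52.1 kb away, the mitotic checkpoint kinase gene BUB1B had 79.9 and 84 CPM in BRD9 KO and 93.8 and 93.5 CPM in LacZ control. Its log2 fold change was -0.20 (edgeR adjusted p = 0.000314). Both neighbours thus moved much less than BMF, by their point estimates; the differences between them and BMF were not tested.

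The genes whose levels across the 4 libraries were most like those of BMF were sought among 2918 tested genes within a factor of 2 of its mean CPM, by the Euclidean distance between centred log2 CPM. They were CDC20B, a relative of the mitotic regulator CDC20, with a log2 fold change of -1.37, MYPN, which encodes the sarcomere protein myopalladin, with -1.46, and PSG11, a pregnancy-specific glycoprotein gene, with -1.52. Their distances were 0.116, 0.127 and 0.144. All of them were lower in both knockout libraries than in both controls. That follows from the choice, since they were picked for their likeness to BMF in these same 4 libraries.

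BCL2L11 encodes BIM, a member that binds all the main survival proteins and is linked to microtubule-bound dynein through DYNLL1. It had 12.2 and 12.9 CPM in BRD9 KO (238 and 211 estimated counts) and 14.7 and 15.1 CPM in LacZ control (222 and 251 estimated counts). The groups did not overlap in CPM. The log2 fold change of -0.25 (standard error 0.10) lay just inside the threshold (edgeR adjusted p = 0.0475). It kept its sign in all 13 alternatives but lost the call in 10 of them, DESeq2 and the removal of any single library among them, with adjusted p between 0.0339 and 0.454 over all 13. An exon of BCL2L11 overlaps one of the long noncoding gene MIR4435-1HG on the opposite strand, which had 26.1 and 28.6 CPM in BRD9 KO and 23.2 and 25.8 CPM in LacZ control. Since the kit does not mark strand, reads from the shared part cannot be told apart.

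BID links death receptors to mitochondria, since its cleavage by CASP8 releases an active fragment. It had 25.1 and 25.8 CPM in BRD9 KO and 20.6 and 19.1 CPM in LacZ control. Both knockout libraries were above both controls, and BID showed the largest rise among the called members. The log2 fold change was 0.36 (standard error 0.08), or 128% of the control level (edgeR adjusted p = 0.000776). The call was lost only on the TPM scale, at 0.24 and 0.25 (limma adjusted p = 0.0813 and 0.0799 with pseudocounts of 1 and 0.1), in a range of adjusted p from 2.61e-05 to 0.0813. The transcript length that RSEM averages over isoforms was 1550 and 1478 bases for BID in BRD9 KO and 1432 and 1366 bases in LacZ control. Those lengths did not overlap, and TPM divides by a length of this kind.

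BAD, which binds BCL-XL and BCL2 unless survival kinases phosphorylate it, had 43.2 and 42.9 CPM in BRD9 KO and 39.5 and 37.3 CPM in LacZ control. BNIP3, the hypoxia-induced mitophagy receptor, had 42.2 and 41.6 CPM in BRD9 KO and 37.3 and 37.3 CPM in LacZ control. For either gene the knockout libraries were above the controls by a small margin. BAD reached 112% of its control level (log2 fold change 0.17, standard error 0.05, edgeR adjusted p = 0.0218), and so did BNIP3 (0.17, standard error 0.05, edgeR adjusted p = 0.0183). DESeq2, which called 25.9% of the 13806 genes it adjusted, called neither of them (adjusted p = 0.126 for BAD and 0.113 for BNIP3). The call of BAD was also lost with limma on log2(TPM + 1) (adjusted p = 0.0743) and on log2(TPM + 0.1) (0.0767), without BRD9 KO replicate 1 (edgeR adjusted p = 0.0794) and without LacZ control replicate 2 (0.184), and over all alternatives its adjusted p ran from 0.00788 to 0.184. That of BNIP3 was lost when either control library was left out (0.0691 without replicate 1 and 0.0794 without replicate 2) or BRD9 KO replicate 1 (0.0842), in a range from 0.00779 to 0.113 by the same adjustment. BAD shares exon sequence with GPR137 on the opposite strand, a gene with 26.4 and 28.5 CPM in BRD9 KO and 26.1 and 27.7 CPM in LacZ control.

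**Figure D2:**
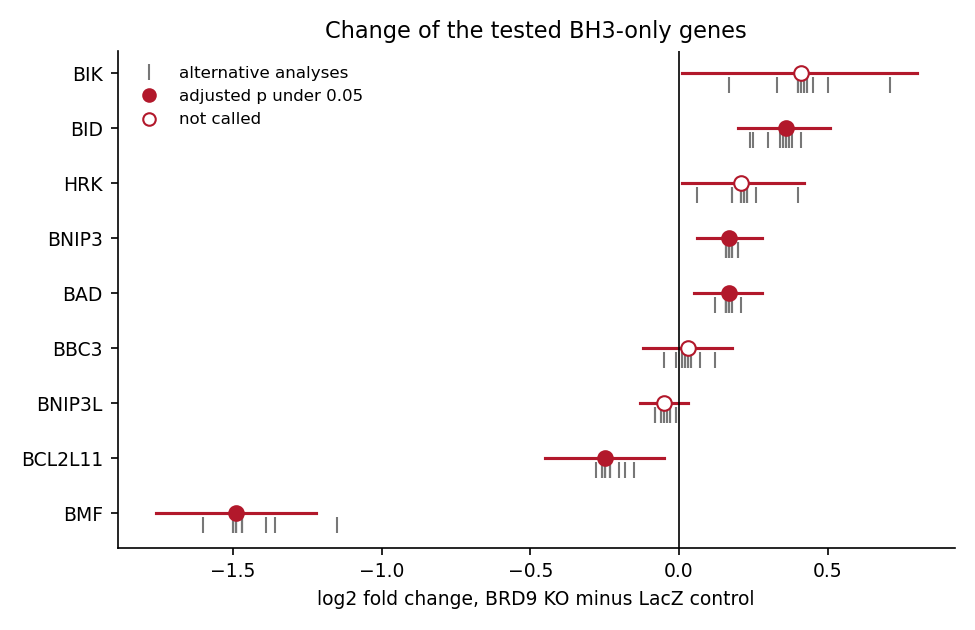
Log2 fold change (BRD9 KO minus LacZ control) of the 9 tested BH3-only genes, with lines for the 95% interval, filled points for an adjusted p under 0.05 and grey ticks for the 13 alternative analyses. BMF, at -1.49, stands apart from the others, which lie between -0.25 and 0.41.

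BIK, a member that resides largely at the endoplasmic reticulum, and HRK, best known from neurons, were not called although their groups did not overlap. BIK had 5.23 and 5.88 CPM in BRD9 KO and 3.38 and 4.92 CPM in LacZ control, with counts of at most 102 in any library. Its log2 fold change of 0.41 had a wide 95% interval of 0.01 to 0.80 (edgeR adjusted p = 0.0953). HRK had 18.5 and 19.5 CPM in BRD9 KO and 14.3 and 18.2 CPM in LacZ control. The log2 fold change of HRK was 0.21, with a 95% interval of 0.01 to 0.42 (edgeR adjusted p = 0.0986). In either gene LacZ control replicate 2 lay close to the knockout libraries. Without that library the log2 fold change was 0.71 for BIK (edgeR adjusted p = 0.0385, over a range of 0.0385 to 0.561) and 0.40 for HRK (0.0151, over a range of 0.0151 to 0.686). Without LacZ control replicate 1 it was 0.17 for BIK (edgeR adjusted p = 0.561) and 0.06 for HRK (0.686), so that the size of either change rests on which control library is kept.

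BBC3, which encodes PUMA, which binds all the main survival proteins, had 29.1 and 27.5 CPM in BRD9 KO and 26.1 and 29.4 CPM in LacZ control. The groups overlapped, and the log2 fold change of 0.03 had a 95% interval of -0.12 to 0.18 (edgeR adjusted p = 0.8). BNIP3L, the mitophagy receptor NIX that clears mitochondria from maturing red cells, had 91.2 and 95.2 CPM in BRD9 KO and 98.7 and 94.1 CPM in LacZ control. These also overlapped, with a log2 fold change of -0.05 and a 95% interval of -0.13 to 0.03 (edgeR adjusted p = 0.314). A change within those intervals could not be told from none in these libraries.

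PMAIP1, which encodes NOXA, the partner that neutralises MCL1, was close to undetected. It had 0 and 1 counts in BRD9 KO and 0 and 1 counts in LacZ control. A count of 0 allows up to 3 counts, or between 0.154 and 0.199 CPM depending on the library, and no fold change is given.

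Levels of different genes are compared here per length, as the deposited TPM. BAD was the most abundant, with 80.9 and 76.6 TPM in BRD9 KO and 70.7 and 70.3 TPM in LacZ control, followed by BNIP3, BNIP3L, BBC3, BID, BIK, HRK, BCL2L11, BMF and PMAIP1 by the mean over the 4 libraries. The order was the same by CPM divided by effective length. Neighbours whose library values overlapped were BBC3 and BID, BIK and HRK, HRK and BCL2L11, and BCL2L11 and BMF. BMF had 2.65 and 2.69 TPM in BRD9 KO and 7.74 and 6.6 TPM in LacZ control, so that it stood below BCL2L11 (5.4 and 5.37 TPM) in BRD9 KO and above BCL2L11 (6.2 and 5.99 TPM) in LacZ control. In LacZ control it also stood above HRK (5.25 and 5.86 TPM) and overlapped BIK (6.35 and 9.21 TPM), so that the pooled order does not describe the control libraries alone.

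**Figure D3:**
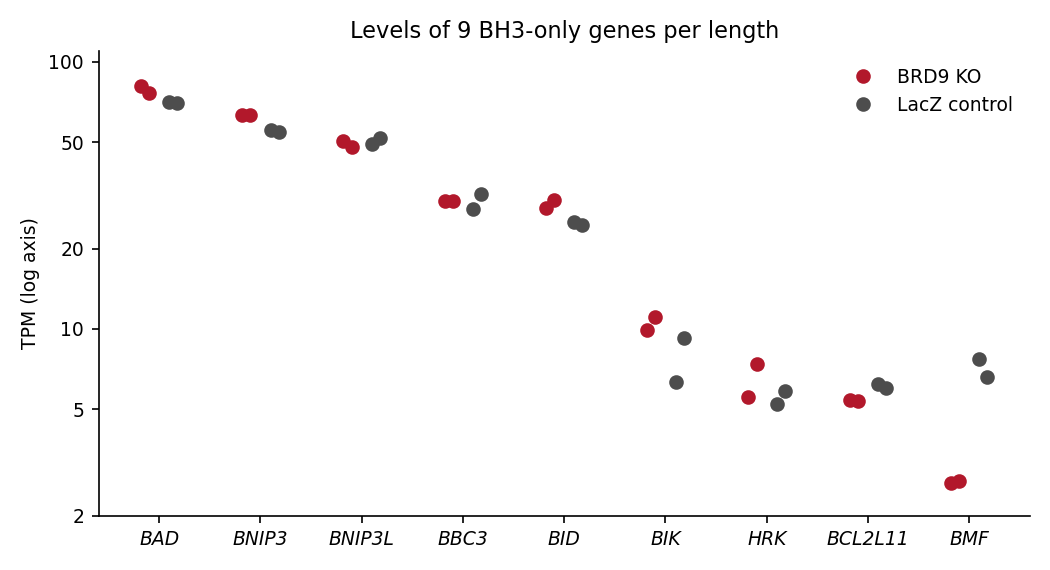
TPM of 9 BH3-only genes on a log axis, ordered by the mean over the 4 libraries, with BRD9 KO libraries left of LacZ control libraries for each gene. PMAIP1 is left out because it was listed at 0 in 1 library of each group. BAD lies between 70.3 and 80.9 TPM and BMF between 2.65 and 7.74 TPM.

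The TPM of all 10 members summed to 277 and 275 in BRD9 KO and to 254 and 261 in LacZ control. BMF made up 0.958% and 0.978% of that sum in BRD9 KO and 3.05% and 2.53% in LacZ control. The summed level was thus slightly higher in both knockout libraries although the member with the largest change fell, since BAD, BNIP3 and BID carry more of the total. Without BNIP3 and BNIP3L the sums were 163 and 164 TPM in BRD9 KO and 150 and 154 TPM in LacZ control.

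Of the 6 survival genes of the BCL2 family, 4 were tested and 2 were called, 1 in each direction, beside 38.6% called over all genes tested. BCL2L1, which encodes BCL-XL, rose to 113 and 111 CPM in BRD9 KO, against 80.1 and 87.7 CPM in LacZ control (log2 fold change 0.42, edgeR adjusted p = 5.65e-08), and BCL2 fell to 27.2 and 26.5 CPM in BRD9 KO, against 35.1 and 30.2 CPM in LacZ control (-0.28, edgeR adjusted p = 0.00485), while MCL1 and BCL2L2 were not called. DESeq2 did not call BCL2. Of the 3 effectors, BAX (0.20) and BAK1 (0.24) were higher and BOK was not called. Of the 7 other genes with a described BH3 or BH3-like stretch, MOAP1, a BAX-binding adaptor (0.36), and BECN1, the autophagy protein Beclin 1 (0.24), were higher, HUWE1, a ubiquitin ligase for MCL1 (-0.16), was lower, and 4 were not called.

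Proteins that bind or modify the members were represented by 27 tested genes, of which 8 were higher, 6 were lower and 13 were not called, with a median log2 fold change of -0.02. The share called was 51.9%, beside 38.6% of all genes tested. DYNLL1, the dynein light chain that binds BIM, had 166 and 174 CPM in BRD9 KO and 145 and 141 CPM in LacZ control (0.25, edgeR adjusted p = 1.71e-06). YWHAG and YWHAE belong to the phosphoserine-binding family that holds phosphorylated BAD in the cytosol, and they moved in opposite directions, at 0.15 and -0.14. In the same family SFN (0.58) and YWHAB (0.05) were called higher and YWHAZ (-0.09) lower, while YWHAH and YWHAQ were not called. These further genes of the family were named after their values were seen. With DESeq2, which called 25.9% of all genes it adjusted, 4 of these genes were higher and 4 lower. With a stricter filter (every library at 1 CPM or more) 7 were higher and 9 lower, so that neither direction prevailed throughout. DYNLL2, the light chain that binds the BMF protein, was taken up after its value was seen and was at -0.12 (edgeR adjusted p = 0.0206). MYO5A, a myosin V gene, was also taken up after its value was seen and moved the other way, at 0.26 (edgeR adjusted p = 8.57e-05).

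Transcription factors described as regulators of BH3-only genes showed no common direction: of 13 tested, 2 were higher and 4 lower, with a median of 0.09. The share called was thus 46.2%, beside 38.6% of all genes tested. HIF1A, the oxygen-regulated factor behind BNIP3 induction, had 170 and 175 CPM in BRD9 KO and 152 and 153 CPM in LacZ control (0.18, edgeR adjusted p = 3.91e-05), and CEBPB was at 0.51. FOXO3, described as an activator of BCL2L11 and BBC3, was lower at -0.18, and TP73, itself a transcription factor gene, was lower at -0.46. FOXO4 (-0.67) and JUN (-0.64) made up the other lower calls and were named after their values were seen. DESeq2, which called 25.9% of all genes it adjusted, called 2 of these factors higher and 1 lower. Without the filter on low counts 4 of them were higher.

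Other genes that share an inducer or a role with BNIP3 and BNIP3L were read beside them. Over all genes tested 38.6% were called. The share was 46.2% of the tested hypoxia targets and 71.4% of the tested mitophagy receptors and ATG8 proteins. Of 13 tested hypoxia targets, 3 were higher and 3 lower, with a median of 0.03. HK2 (0.48), P4HA2 (0.44) and ADM (0.33) were higher, and PFKFB4 (-0.50), DDIT4 (-0.41) and PDK1 (-0.33) were lower. PFKFB4 and PDK1 were named after their values were seen. BNIP3 was at 0.17 and BNIP3L at -0.05. Of 14 tested mitophagy receptors and ATG8 proteins other than the members, 6 were higher and 4 lower, with a median of 0.07. SQSTM1, the cargo receptor p62, had 406 and 408 CPM in BRD9 KO and 232 and 230 CPM in LacZ control (0.82, edgeR adjusted p = 2.22e-17). GABARAPL1 (0.40), OPTN (0.39) and GABARAPL2 (0.31) were higher as well. The 4 lower were PINK1 (-0.23), CALCOCO2 (-0.16), FKBP8 (-0.12) and NBR1 (-0.12), which were named after their values were seen. DESeq2, which called 25.9% of all genes it adjusted, called 2 genes of this list lower and the stricter filter 6, with 6 higher in either analysis.

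**Figure D4:**
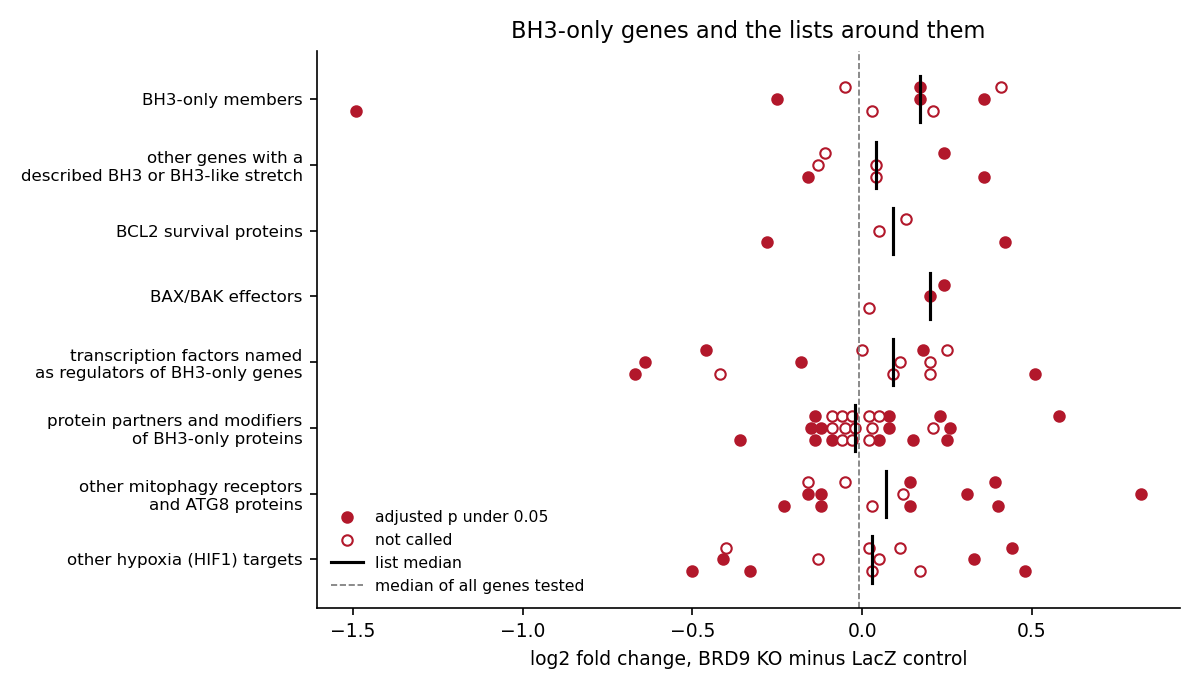
Log2 fold change (BRD9 KO minus LacZ control) of the tested genes in the BH3-only list and in 7 further lists. Filled points are genes with an adjusted p under 0.05, black bars are list medians and the dashed line is the median of all genes tested. The lowest plotted point is BMF at -1.49 and the highest plotted is SQSTM1 at 0.82.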

How the data were processed

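RNA-seq of total RNA was analysed for 4 G401 libraries, 2 labelled BRD9 KO and 2 labelled LacZ control, all of which were used. Libraries were made with a NEBNext Ultra kit, by its catalogue number an unstranded version. Per the methods, the authors used STAR for alignment to hg19, RSEM for quantification and DESeq2 for differential expression. The submitters' processing notes also name DESeq2, without versions. The calls given here are from edgeR instead, with DESeq2 as an alternative. The deposited estimated count (expected count) splits reads that match several genes between them by a model and is not scaled between libraries. The deposited TPM is that count divided by effective length and scaled within a library. The posterior standard deviation of the deposited estimated count was at most 1.82% of it for any member.

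Estimated counts were rounded to whole numbers. edgeR 4.0.16 in R 4.3.3 was run with TMM scaling, filterByExpr (15288 genes kept), robust quasi-likelihood fits without covariates. Tests were two-sided, and p-values were adjusted by the Benjamini-Hochberg method across every tested gene. Standard errors and 95% intervals follow from its F statistic. Intervals and floors cover counting error or the spread between these libraries only. The study calls the replicates biological, but the labels name no separate cultures, so that p-values measure a spread that may be technical. Replicates differed by more than sampling noise (chi-square per degree of freedom 1.59 in BRD9 KO and 1.62 in LacZ control).

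Alternatives were a stricter filter (each of the 4 libraries at 1 CPM or more), no filter on low counts, RLE factors, scaling by library totals, DESeq2 1.42.0, limma-voom and limma 3.58.1 on log2(TPM + 1) and log2(TPM + 0.1), the replicate number as a block, and each library left out in turn. A library left alone in its group was assumed to vary like the other group. Log2 fold changes on the log2(TPM + pseudocount) scale understate the change of low genes.

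Gene positions are from GENCODE v44 on GRCh37, matched by Ensembl identifier for 55538 of 57820 models. Genes were named by rule: all members, BRD9, up to 4 called genes per list by smallest p, the tested neighbours of called members changed at least 1.5-fold, and the 3 genes most like the member with the largest fold. Some genes that the rule took, and 1 list, are not reported here. Members and lists were chosen with earlier results of these data known.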

Additional observations from a re-analysis of the deposited data

How the results depend on the processing

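BMF kept its call in every alternative run. The count of members called higher was 3, and it was 1 with DESeq2, 1 with limma on log2(TPM + 1), 1 with limma on log2(TPM + 0.1), and between 1 and 3 with a library left out. The count called lower was 2, and it was 1 with no filter on low counts, DESeq2, limma-voom or limma on either TPM scale, and 1 with any library left out; BCL2L11 was the gene lost. BBC3 changed sign without BRD9 KO replicate 1 (-0.01) and without LacZ control replicate 1 (-0.05), within a range of -0.05 to 0.12 with a library left out. BRD9 was lower in all alternatives. The 1 member called higher was BID with DESeq2 and BNIP3 with limma on either TPM scale. Equal counts thus need not hold the same members. Why these values moved was not tested.

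With the replicate number as a block, 4 members were called higher, HRK being the addition (0.23, edgeR adjusted p = 0.0443), and 1 lower, and 6109 genes were called in all, against 5901 without the block. Same-numbered libraries did not deviate together (correlation -0.0535), so that the numbers were not treated as pairs.

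Over all genes, 3573 were called with DESeq2, 2464 with limma on log2(TPM + 1) and 2398 with limma on log2(TPM + 0.1). Of 63 counts and medians recomputed for the 7 further lists reported here, 12 moved beyond a set tolerance and 51 stayed within it. The 51 were not all unchanged. Among them, the count of protein partners and modifiers called lower went from 6 to 9 with the stricter filter. The count of hypoxia targets called lower went from 3 to 2 with DESeq2. A change of sign was not recorded separately for the 63 values. With 2 libraries in each group and counts of 51 to 102 for BIK and 0 to 1 for PMAIP1, changes in those genes were the least well measured.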
